A study of Arabidopsis thaliana with 24 samples.

Results

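The roots of Arabidopsis thaliana seedlings kept for 3 h in polyethylene glycol (PEG) were compared with roots kept for 1 h in the same solution, which shows how root transcripts moved on between these times of one osmotic treatment. The members were the root libraries of these times in the raw count table, 6 of 24 libraries, with 3 libraries of PEG 3 h and 3 of PEG 1 h, and no water library was used. Both groups were wild-type Columbia-0 seedlings, 7 d old, raised at 21 °C with 16 h of light and 8 h of dark on a medium with 1% sucrose. Both were then placed in 30% (w/v) PEG of molecular weight 8000, a solution of −2.0 MPa. Neither group is labelled with a mutant allele, a transgene or a further agent. Each library came from a pool of 30 to 50 seedlings, with roots and shoots parted after the treatment. The other libraries of the series are root PEG 2 h, root water 1 h and the shoots of the same plants. RNA was counted by MARS-seq, a barcoded method that reads the 3′ ends of polyadenylated transcripts, so that a count does not scale with transcript length.

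PEG of this size stays outside the cell wall and draws water from the root without entering its cells. Water loss raises abscisic acid (ABA), which binds PYR/PYL receptors; the bound receptors inhibit clade A type 2C protein phosphatases (PP2Cs), and this frees SnRK2 kinases to activate ABF transcription factors. The ABF factors bind promoter elements with the ACGTG core, and the PP2C genes are themselves induced by ABA as a negative feedback. In the root, water also passes through aquaporins and is channelled by the Casparian strip, a lignin band that seals the walls of the endodermis.

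Total counts were 4492121, 5495746 and 4940701 in the PEG 3 h libraries, against 2832168, 3489193 and 1332586 in the PEG 1 h libraries, so the groups did not overlap in depth. At the floor of 3 counts, a library could show 0.546 to 0.668 CPM (read counts scaled to a common library size) at 3 h and 0.860 to 2.25 CPM at 1 h. The share of counts from organelle genomes was 2.39% to 2.6% at 3 h and 2.65% to 3.97% at 1 h. The tissue label was checked with markers: all 23 markers of green shoot tissue had counts in every root library and summed to 0.0891% to 0.165% of counts at 3 h and 0.0855% to 0.113% at 1 h, against 12.9% to 15.3% in the shoot libraries of the same times. All 11 markers of root tissues had counts in every library and summed to 0.0358% to 0.0381% at 3 h and 0.0521% to 0.0547% at 1 h. Without CASP1, a member described later, the remaining 10 summed to 0.0222% to 0.0248% at 3 h and 0.0192% to 0.0221% at 1 h. The part of depth in the results was not tested. No water library of 3 h was used, and time in PEG, time in solution and time of day cannot be told apart.

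Of 18240 genes in the table, 10345 passed the low-count filter and were tested by the quasi-likelihood F test of edgeR, with p-values adjusted over all of them (Benjamini-Hochberg). The filter can be passed by the levels of 1 group alone. A gene near the floor at 1 h can thus be tested only because of its 3 h levels. At an adjusted p under 0.05, 758 genes changed, 7.33% of those tested; 375 rose (3.62%) and 383 fell (3.7%) at 3 h relative to 1 h. Changes of at least 2-fold were made by 219 of the genes that rose and 159 of those that fell. The median log2 fold change of all tested genes was 0.02. Scaling by library totals instead of TMM moved that median to 0.13 and the split to 475 genes that rose and 251 that fell, so 65.4% of the calls rose, against 49.5% with TMM. Leaving out single libraries gave 240 to 607 calls, the lowest without 3 h replicate 2. Without regard to a test, all 3 h libraries lay above all 1 h libraries for 15.7% of the genes and below them for 14.4%. In bulk roots, fewer cells of a type and less RNA per cell cannot be told apart. All adjusted p-values of single genes come from this edgeR test unless another test or fit is named. All levels are CPM with TMM factors, listed from replicate 1 to replicate 3. The ± after a log2 change or difference is an approximate standard error, its absolute value divided by the square root of F. A call lost without a library is named with its adjusted p in that fit.

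The genes that rose most included several of known dehydration responses. The rule for naming the largest rises and falls required all 3 h libraries on 1 side of all 1 h libraries. Their separation is therefore not a result. AT3G03341, annotated as a cold-regulated protein, had 43.8, 33.1 and 25 CPM at 3 h, against 1.82, 3.14 and 1.69 CPM at 1 h (log2 change of 3.81 ± 0.33, adjusted p = 0.000134). TSPO, a membrane protein of ABA and salt responses, had 24.2, 18.1 and 14.9 CPM at 3 h, against 2.55, 1.71 and 1.69 CPM at 1 h (log2 change of 3.22 ± 0.35, adjusted p = 0.000423). GOLS2, a galactinol synthase that starts raffinose synthesis, had 32.1, 36.8 and 34.3 CPM at 3 h, against 5.82, 4.57 and 4.23 CPM at 1 h (log2 change of 2.79 ± 0.22, adjusted p = 9.2e-05). In each of these genes every 3 h library stood several-fold above every 1 h library. HB7, a homeodomain leucine zipper factor of water deficit, had 102, 147 and 93.3 CPM at 3 h, against 25.5, 19.1 and 13.5 CPM at 1 h (log2 change of 2.50 ± 0.24, adjusted p = 0.00028). LEA7, a late embryogenesis abundant (LEA) protein, had 41.2, 45.8 and 17.4 CPM at 3 h, against 4.73, 5.71 and 2.54 CPM at 1 h (log2 change of 2.87 ± 0.43, adjusted p = 0.0048). Replicate 3 at 3 h was the lowest of its group for both genes. The uncharacterised AT1G04047 had 17.2, 15.2 and 29.4 CPM at 3 h, against 1.82, 2.29 and 0.846 CPM at 1 h (log2 change of 3.45 ± 0.41, adjusted p = 0.000651). The histone gene AT1G75600 had 29.1, 25.3 and 19.4 CPM at 3 h, against 3.27, 2.29 and 0 CPM at 1 h, with no count in 1 library of 1 h. In 1 h replicate 3, AT3G03341, TSPO, AT1G04047 and AT1G75600 lay under that library's count floor of 2.25 CPM. The size of their rises is uncertain.

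Log2 fold changes of the 14 largest falls ran from −2.28 to −1.82. PHI-1, the first of them, a phosphate-responsive protein of the EXORDIUM family linked to cell expansion, had 72.6, 53.4 and 47.6 CPM at 3 h, against 288, 264 and 290.1 CPM at 1 h (log2 change of −2.28 ± 0.17, adjusted p = 8.23e-05). The extensin-like AT1G23720 had 74, 69.2 and 49.8 CPM at 3 h, against 274, 235 and 291 CPM at 1 h (log2 change of −2.05 ± 0.17, adjusted p = 9.77e-05). For both genes the lowest 1 h library held more than 3 times the CPM of the highest 3 h library. LOX3, a lipoxygenase of jasmonate synthesis, had 3.52, 3.79 and 1.16 CPM at 3 h, against 11.3, 11.7 and 7.61 CPM at 1 h (log2 change of −1.89 ± 0.40, adjusted p = 0.0163). LOX3 lost its call without 1 h replicate 1 (adjusted p = 0.0571). ORS1, annotated as an organ-size-like protein, and the phloem-protein-like PP2-B13 were also among the 14 largest falls, with log2 fold changes of −1.88 and −1.97. Of the 28 largest changes, 24 kept their call when any 1 library was left out. The exceptions were LOX3 and 3 others. AT3G12510 lost its call without 1 h replicate 3 (adjusted p = 0.0687). AT1G63040 lost its call without 3 h replicate 2 (adjusted p = 0.0513). AT5G58680 lost its call without 1 h replicate 3 or 3 h replicate 2 (adjusted p = 0.0525 to 0.0806). Of the 196 genes named by rule, 53 overlap another annotated gene, mostly on the other strand. The labels do not state whether the counting used strand, so reads of such pairs cannot be told apart; AT3G03341, AT1G04047, LEA7, ORS1, PP2-B13 and AT3G12510 are among them. So are, of the genes described later, ABI1, ABF3, ABF4, ATAF1, NAC102, ATAF2, HB-1, CBF3, DREB2A, P5CS1, GOLS1, HSFA3, ADH1, ACO5, AZF3, WRKY33, PUB23, JAZ12, CASP1, ESB1, PER64, TIP2;1, FER1, IAA13, ARR8, BES1, RVE1 and GSTU17.

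**Figure D1:**
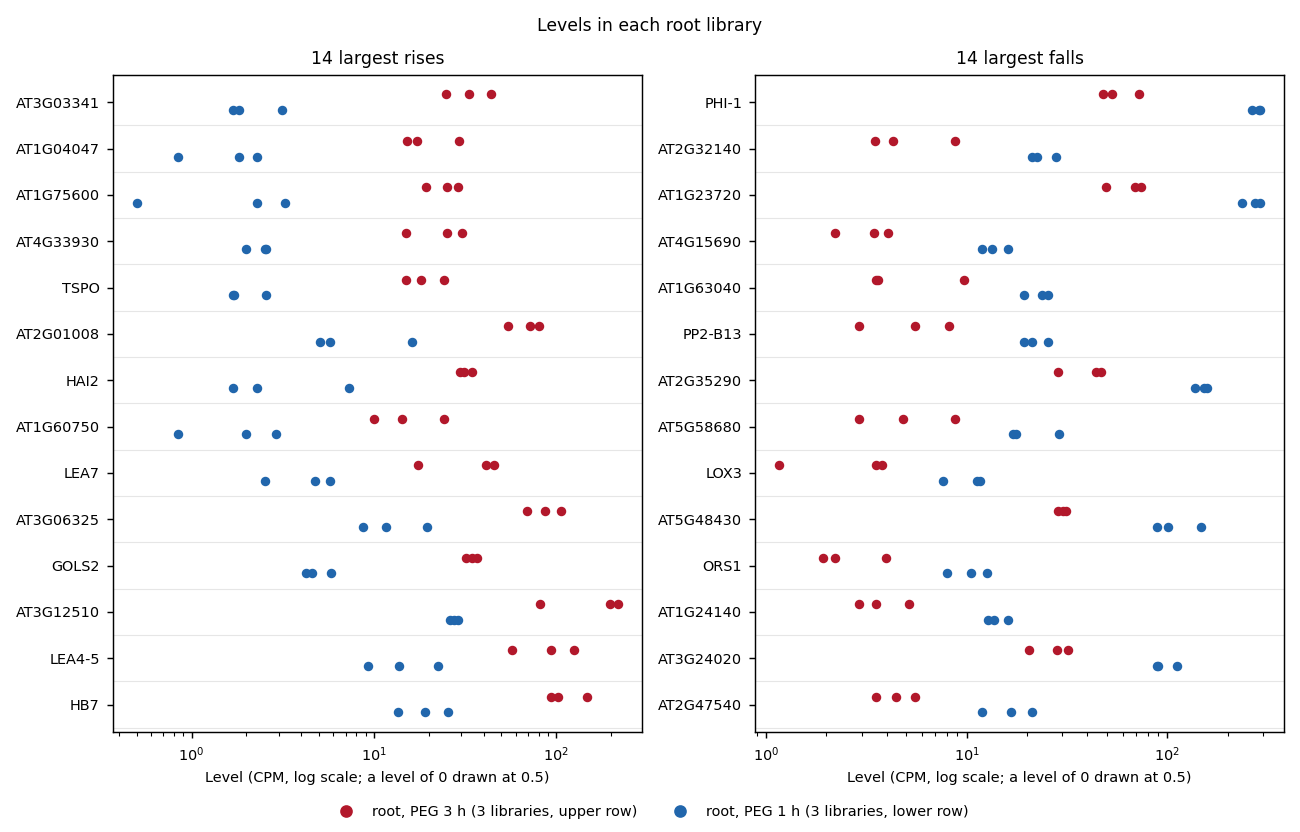
Level in CPM (log axis, a level of 0 drawn at 0.5) of the 14 called genes with the highest and the 14 with the lowest log2 fold change, each point a library, with PEG 3 h libraries in the upper row of each gene and PEG 1 h libraries in the lower. The 3 h and 1 h points of every gene are separate, which the rule for naming them required.

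At the head of the pathway, 1 of 5 tested genes of ABA metabolism was called, where 7.33% of all tested genes were called. NCED3, the rate-limiting step of ABA synthesis under drought, rose: it had 29.3, 42.7 and 18.6 CPM at 3 h, against 10.2, 8.28 and 8.46 CPM at 1 h (log2 change of 1.74 ± 0.32, adjusted p = 0.00805). Replicate 2 at 3 h was the highest library and the groups did not overlap. NCED3 lost its call without 1 h replicate 3 (adjusted p = 0.0541). CYP707A3, an ABA 8′-hydroxylase that breaks ABA down, had 4.4, 5.85 and 2.52 CPM at 3 h, against 10.9, 6.28 and 7.61 CPM at 1 h and was not called (log2 fold change −0.95, adjusted p = 0.16). The receptors split. Of 8 tested PYR/PYL genes, 2 rose and 2 fell, with a median log2 fold change of −0.22. PYL9 rose, with 43.1, 39.1 and 47.2 CPM at 3 h, against 27.6, 16.9 and 20.3 CPM at 1 h (log2 change of 1.00 ± 0.20, adjusted p = 0.0125). PYL9 lost its call without 1 h replicate 2 (adjusted p = 0.0603). PYL4 fell, with 534, 388 and 489 CPM at 3 h, against 768, 678 and 952 CPM at 1 h (log2 change of −0.76 ± 0.17, adjusted p = 0.0175). PYL5 fell likewise, with 455, 375 and 490.4 CPM at 3 h, against 658, 633 and 866 CPM at 1 h (log2 change of −0.71 ± 0.16, adjusted p = 0.0212). The receptors with the highest counts thus lay below their 1 h level in all 3 h libraries, and PYL9, a lower one, above it. PYL8 also rose (log2 change of 2.35 ± 0.56, adjusted p = 0.027), but its levels were 2.52 to 3.1 CPM at 3 h and 0.364 to 0.846 CPM at 1 h, and those 1 h levels lay under the count floor. PYL8 passed the low-count filter by its 3 h levels alone. It could be tested in 4 of 6 leave-one-out fits and lost its call in 3 of them (adjusted p = 0.0594 to 0.123). PYL4 lost its call without 3 h replicate 2 (adjusted p = 0.111). PYL5 lost its call without 3 h replicate 2 (adjusted p = 0.129).

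Of the PP2C phosphatases, the targets of the receptors, 5 of 8 tested members rose and none fell, with a median log2 fold change of 1.15 against 0.02 over all genes. The 8 tested were all but 1 of the 9 listed members. HAI2 had 29.5, 34.6 and 31.4 CPM at 3 h, against 7.28, 2.29 and 1.69 CPM at 1 h (log2 change of 2.97 ± 0.36, adjusted p = 0.000973). HAI1 had 87.4, 100.4 and 64.1 CPM at 3 h, against 25.1, 16.3 and 11 CPM at 1 h (log2 change of 2.2 ± 0.26, adjusted p = 0.00102). HAI3 was low at both times, with 7.48, 7.75 and 5.81 CPM at 3 h, against 1.46, 0.286 and 0.846 CPM at 1 h (log2 change of 3.05 ± 0.50, adjusted p = 0.00427). Of its 1 h levels, 2 were under the count floor of their library, as was that of HAI2 in 1 h replicate 3. HAI3 passed the low-count filter by its 3 h levels alone, so its place among the rises carries no weight of its own. The 3 HAI genes, the highly ABA-induced branch of the clade, had the highest fold changes of the list. In each of them every 3 h library was above every 1 h library, which for HAI2 the naming rule required. ABI1, a much-studied member whose dominant mutation blocks ABA responses, had 539, 587 and 412 CPM at 3 h, against 319.7, 259 and 201 CPM at 1 h (log2 change of 0.97 ± 0.19, adjusted p = 0.0099). HAB1 had 35.2, 45.3 and 35 CPM at 3 h, against 16.7, 19.4 and 5.92 CPM at 1 h (log2 change of 1.33 ± 0.28, adjusted p = 0.0171), with the lowest level in 1 h replicate 3. The groups were separate for both genes. ABI1 lost its call without 3 h replicate 2 (adjusted p = 0.0611). HAB1 lost its call without 3 h replicate 2 (adjusted p = 0.0974). That left 3 calls in the list without 3 h replicate 2. ABI2, HAB2 and PP2CA were not called, with log2 fold changes of 0.65, 0.40 and 0.34 (adjusted p = 0.151, 0.492 and 0.287).

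The 250 bases before the annotated start of the 5 called PP2C genes are shown because the ACGTG core of ABA-responsive elements lies in such promoters; capitals mark ACGTG on either strand. The sequences were read 5′ to 3′ on each gene's own strand from the RefSeq TAIR10.1 genome: HAI2 at chr1:2282829-2283078, minus strand; HAI3 at chr2:12608425-12608674, plus strand; HAI1 at chr5:23896940-23897189, minus strand; HAB1 at chr1:27389698-27389947, plus strand; ABI1 at chr4:13222377-13222626, minus strand. None of these windows overlaps another annotated gene.
HAI2: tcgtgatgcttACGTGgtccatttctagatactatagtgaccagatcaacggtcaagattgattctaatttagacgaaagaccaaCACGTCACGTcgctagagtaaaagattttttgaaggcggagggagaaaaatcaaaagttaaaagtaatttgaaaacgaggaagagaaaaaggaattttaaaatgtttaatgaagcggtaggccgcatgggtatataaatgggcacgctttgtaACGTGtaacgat
HAI3: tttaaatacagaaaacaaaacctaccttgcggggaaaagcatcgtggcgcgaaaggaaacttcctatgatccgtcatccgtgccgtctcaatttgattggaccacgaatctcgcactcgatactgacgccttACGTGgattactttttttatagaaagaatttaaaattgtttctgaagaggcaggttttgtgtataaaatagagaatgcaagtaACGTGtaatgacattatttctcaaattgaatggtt
HAI1: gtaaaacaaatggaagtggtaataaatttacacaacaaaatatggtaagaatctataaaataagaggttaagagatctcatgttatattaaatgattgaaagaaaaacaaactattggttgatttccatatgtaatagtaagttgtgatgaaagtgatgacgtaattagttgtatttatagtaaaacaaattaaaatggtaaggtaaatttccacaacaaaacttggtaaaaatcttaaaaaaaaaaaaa
HAB1: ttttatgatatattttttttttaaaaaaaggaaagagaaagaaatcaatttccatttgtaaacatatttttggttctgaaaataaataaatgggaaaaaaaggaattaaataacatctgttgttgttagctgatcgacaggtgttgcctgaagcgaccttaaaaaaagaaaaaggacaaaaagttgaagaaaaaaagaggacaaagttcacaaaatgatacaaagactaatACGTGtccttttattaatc
ABI1: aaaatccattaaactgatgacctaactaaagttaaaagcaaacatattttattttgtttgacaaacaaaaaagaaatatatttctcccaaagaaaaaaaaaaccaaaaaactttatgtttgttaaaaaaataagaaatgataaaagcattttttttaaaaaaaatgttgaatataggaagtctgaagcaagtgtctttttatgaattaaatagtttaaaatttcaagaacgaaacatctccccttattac
The window of HAI2 held 4 matches, that of HAI3 held 2 and that of HAB1 held 1, while HAI1 and ABI1 held none. HAI3 and HAI2, with the highest fold changes of the 5 genes, held the most matches, while HAI1, with no match, had a larger fold change than HAB1. A relation between matches and fold change was not tested. A match is a description of the letters and not of binding.

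Downstream of the phosphatases, 4 of 7 tested kinase and ABF genes rose and none fell (median log2 fold change 0.79). MAPKKK17 had 50.9, 67.7 and 48.2 CPM at 3 h, against 19.3, 10.6 and 8.46 CPM at 1 h (log2 change of 2.06 ± 0.27, adjusted p = 0.00135). MAPKKK18, an ABA-activated kinase of the same cascade, had 99.7, 106 and 50.5 CPM at 3 h, against 25.8, 20.9 and 22 CPM at 1 h (log2 change of 1.90 ± 0.28, adjusted p = 0.00414). For both kinases no 1 h library came near a 3 h library. ABF3, an ACGTG-binding factor, had 114, 119 and 82.9 CPM at 3 h, against 60.4, 52.6 and 57.5 CPM at 1 h (log2 change of 0.89 ± 0.17, adjusted p = 0.00875). ABF4 rose by less (log2 change of 0.74 ± 0.20, adjusted p = 0.0437). ABF3 lost its call without 3 h replicate 2 (adjusted p = 0.0586). ABF4 lost its call in 5 of 6 leave-one-out fits, though not without 3 h replicate 3 (adjusted p = 0.0635 to 0.207).

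Stress NAC factors rose in 5 of 7 tested members (median log2 fold change 1.29). RD26, which is induced by dehydration and ABA, had 265, 304 and 227 CPM at 3 h, against 123, 81.1 and 69.4 CPM at 1 h (log2 change of 1.52 ± 0.20, adjusted p = 0.00168). ATAF1, a regulator of drought and ABA synthesis genes, had 2388, 2294 and 1702 CPM at 3 h, against 1062, 836 and 716 CPM at 1 h (log2 change of 1.29 ± 0.18, adjusted p = 0.00183). NAC102 had 799, 942 and 721 CPM at 3 h, against 343, 271 and 162 CPM at 1 h (log2 change of 1.65 ± 0.24, adjusted p = 0.00427). In these genes 1 h replicate 3 was the lowest library, and no 1 h library reached a 3 h library. ATAF2 (log2 change of 1.17 ± 0.21, adjusted p = 0.00739) and NAC032 (log2 change of 1.36 ± 0.24, adjusted p = 0.0108) also rose. NAC032 lost its call without 3 h replicate 2 (adjusted p = 0.0602).

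Of 11 HD-Zip class I factors, 4 rose and 1 fell (median log2 fold change 0.55). Beside HB7, HB40, which acts in ABA accumulation in buds, had 52.4, 51.6 and 27.1 CPM at 3 h, against 15.3, 9.43 and 7.61 CPM at 1 h (log2 change of 1.96 ± 0.32, adjusted p = 0.00616). HB6 (log2 change of 0.65, adjusted p = 0.0366) and HB16 (log2 change of 1.75, adjusted p = 0.0408) rose and HB-1 fell (log2 change of −0.52, adjusted p = 0.0412). Each of these 3 calls was lost in at least 4 of 6 fits that left out 1 library. The CBF and DREB factors, which bind the dehydration element, gave 1 rise and 1 fall in 12 tested genes. DDF2 had 43.1, 30 and 32.7 CPM at 3 h, against 82.6, 86 and 59.2 CPM at 1 h (log2 change of −1.13 ± 0.19, adjusted p = 0.00504), with every 3 h library lower. CBF3 rose (log2 change of 1.36 ± 0.33, adjusted p = 0.0489). CBF3 lost its call in 5 of 6 leave-one-out fits, though not without 3 h replicate 3 (adjusted p = 0.0613 to 0.179). DREB2A, a drought-induced activator, had 64.7, 114 and 98 CPM at 3 h, against 23.6, 64.8 and 14.4 CPM at 1 h. Its 1 h replicate 2 reached the lowest 3 h library, and the gene was not called (adjusted p = 0.195). It was called without that library (adjusted p = 0.00222) and with the replicate letter as a block (adjusted p = 0.0185).

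Genes of protective proteins rose in 7 of 17 tested members and none fell (median log2 fold change 0.85). LEA4-5, a LEA protein of vegetative water deficit, had 93.3, 125 and 57.1 CPM at 3 h, against 22.6, 13.7 and 9.3 CPM at 1 h (log2 change of 2.53 ± 0.36, adjusted p = 0.00587). COR413PM1, a cold-regulated membrane protein, had 23.3, 21.7 and 19.2 CPM at 3 h, against 6.91, 6.86 and 6.77 CPM at 1 h (log2 change of 1.64 ± 0.23, adjusted p = 0.00177). KIN2, a small hydrophilic cold-induced protein, had 1551, 1713 and 1374 CPM at 3 h, against 1012, 774 and 779 CPM at 1 h (log2 change of 0.85 ± 0.15, adjusted p = 0.00659). The 1 h libraries of COR413PM1 were nearly equal and stood well under the 3 h level, whereas KIN2, a far more abundant tag, did not reach a doubling. The dehydrin RAB18 had 9.69, 7.23 and 5.61 CPM at 3 h, against 1.09, 1.71 and 1.69 CPM at 1 h (log2 change of 2.31 ± 0.42, adjusted p = 0.00728). RAB18 passed the low-count filter by its 3 h levels alone, and its level in 1 h replicate 3 was under the count floor. The dehydrin LTI30 had 1394, 1767 and 1708 CPM at 3 h, against 923, 739 and 395 CPM at 1 h (log2 change of 1.24 ± 0.27, adjusted p = 0.0299). LTI30 lost its call without 1 h replicate 2, 3 h replicate 2 or 3 h replicate 3 (adjusted p = 0.0574 to 0.122). RD29A, a classic dehydration reporter, had 1056, 1313 and 1041 CPM at 3 h, against 536, 298 and 134 CPM at 1 h and was not called (log2 change of 1.8 ± 0.47, adjusted p = 0.0804). Its 3 h libraries lay above its 1 h libraries, which differed about 4-fold among themselves. RD29A was called without 1 h replicate 1 or 1 h replicate 3 (adjusted p = 0.00603 and 0.0305), by DESeq2 (0.0109), with the replicate letter as a block (0.0216) and with 9 or 12 root libraries in the fit (0.0423 and 0.019). RD29B was under the low-count filter.

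Genes of galactinol, raffinose and class II trehalose phosphate synthases rose in 4 of 9 tested members (median log2 fold change 0.89). Beside GOLS2, RS5, a raffinose synthase, had 53.9, 50.8 and 36.8 CPM at 3 h, against 24.4, 12.6 and 10.2 CPM at 1 h (log2 change of 1.53 ± 0.28, adjusted p = 0.00981). RS5 lost its call without 3 h replicate 2 (adjusted p = 0.0572). TPS11, a class II trehalose phosphate synthase, rose (log2 change of 2.51 ± 0.54, adjusted p = 0.0179). TPS11 lost its call without 1 h replicate 1 or 3 h replicate 2 (adjusted p = 0.0774 to 0.0873). GOLS1 rose by less (log2 change of 0.89 ± 0.24, adjusted p = 0.0482). GOLS1 lost its call in all 6 leave-one-out fits (adjusted p = 0.0547 to 0.154). Without 3 h replicate 2 the list held 1 call. P5CS1, which makes proline under osmotic stress, had 125, 127 and 67.8 CPM at 3 h, against 53.5, 50 and 38.9 CPM at 1 h (log2 change of 1.14 ± 0.24, adjusted p = 0.0194). P5CS1 lost its call in 4 of 6 leave-one-out fits, though not without 1 h replicate 1 or 3 h replicate 3 (adjusted p = 0.0593 to 0.0987). PRODH1, which breaks proline down, had 791, 891 and 1650.4 CPM at 3 h, against 867, 887 and 559 CPM at 1 h and was not called (adjusted p = 0.362). The PRODH1 groups overlapped, and 3 h replicate 3 was about double the others. Of 8 heat shock factor genes 2 rose, HSFA1E (log2 change of 1.73 ± 0.36, adjusted p = 0.014) and HSFA3 (log2 change of 1.23 ± 0.32, adjusted p = 0.0379), and of 9 chaperone genes HSP70 alone (log2 change of 0.77 ± 0.20, adjusted p = 0.0456). All 9 chaperone genes had positive fold changes (median 0.97), where 5371 of all 10345 tested genes did. HSFA1E lost its call without 1 h replicate 2 or 3 h replicate 2 (adjusted p = 0.0638 to 0.0641). HSFA3 lost its call in 5 of 6 leave-one-out fits, though not without 1 h replicate 2 (adjusted p = 0.0522 to 0.0974). HSP70 lost its call in 4 of 6 leave-one-out fits, though not without 1 h replicate 1 or 3 h replicate 3 (adjusted p = 0.139 to 0.183).

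Core hypoxia genes rose in 4 of 14 tested members (median log2 fold change 0.62). ADH1, alcohol dehydrogenase, had 176, 274 and 233 CPM at 3 h, against 106, 75.1 and 54.1 CPM at 1 h (log2 change of 1.51 ± 0.24, adjusted p = 0.00603). SUS4, a sucrose synthase, had 17.2, 21 and 22.5 CPM at 3 h, against 7.64, 5.71 and 6.77 CPM at 1 h (log2 change of 1.6 ± 0.25, adjusted p = 0.00304). SUS1 rose as well (log2 change of 1.6 ± 0.30, adjusted p = 0.011). SUS1 lost its call without 1 h replicate 3 (adjusted p = 0.0687). The ERF factor HRE2 rose (log2 change of 1.36 ± 0.37, adjusted p = 0.0482). HRE2 lost its call in 4 of 6 leave-one-out fits, though not without 1 h replicate 2 or 3 h replicate 3 (adjusted p = 0.0944 to 0.219). ADH1 and SUS4 were separate between the groups with replicate 2 or 3 highest at 3 h.

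**Figure D2:**
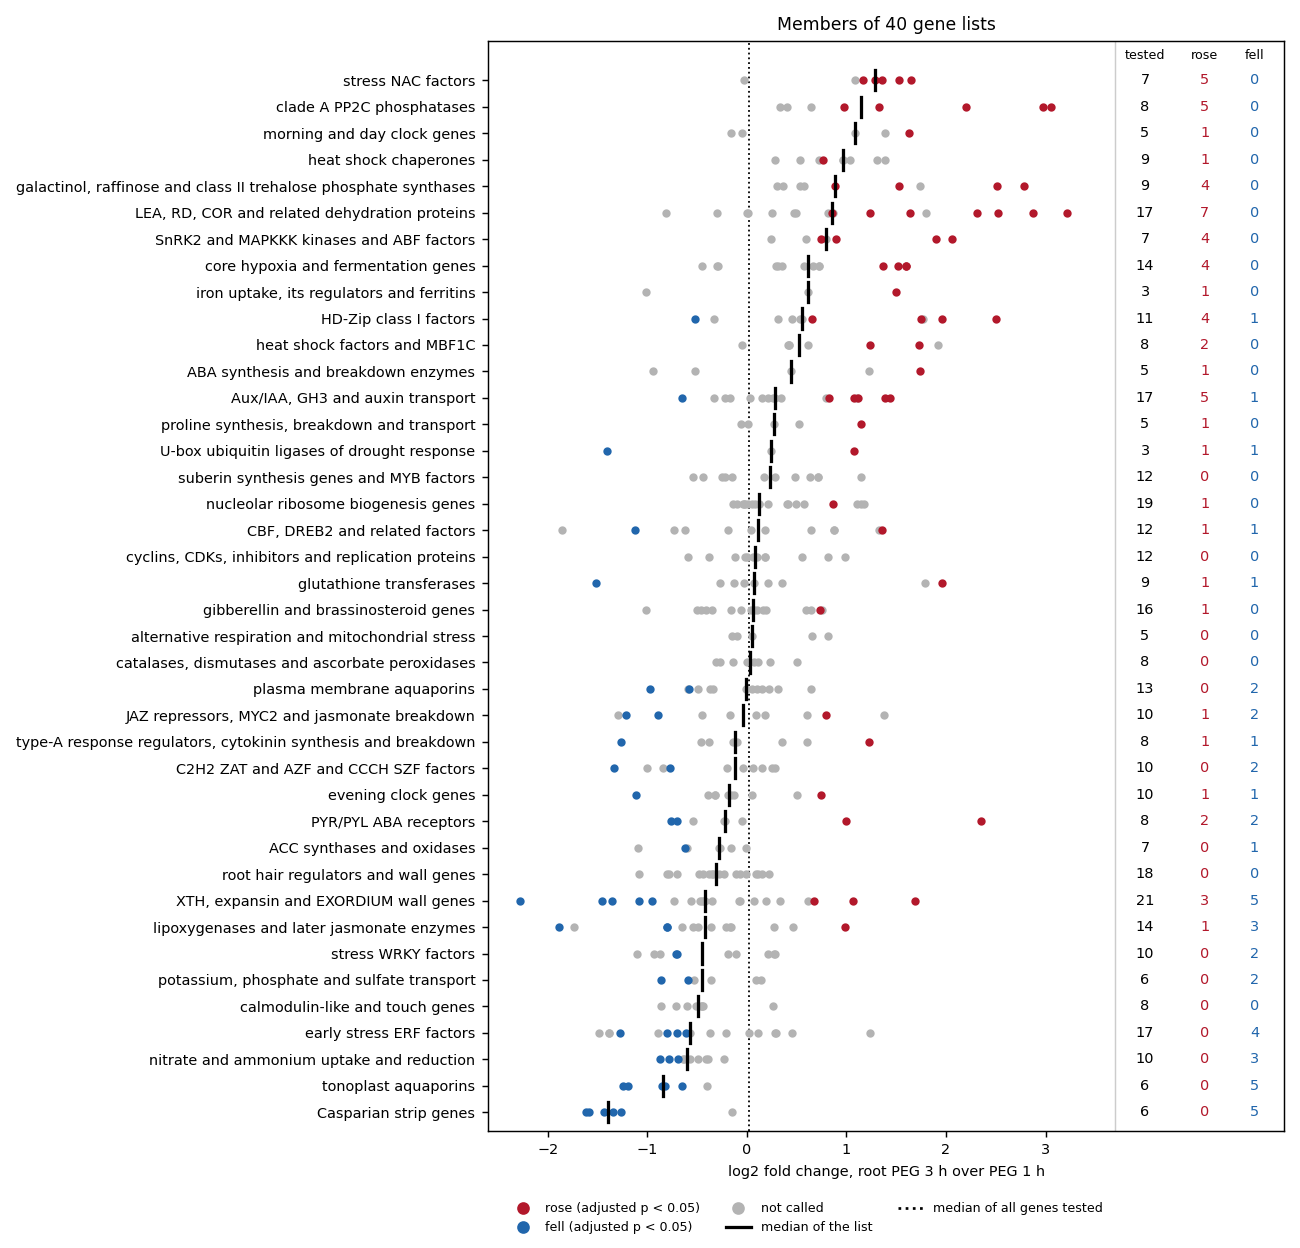
Log2 fold change (PEG 3 h over PEG 1 h) of every tested member of 40 gene lists, each point a gene and each bar the list median, with the number tested, risen and fallen beside each list. The median of the PP2C list is 1.15, that of the Casparian strip list −1.39 and that of all tested genes 0.02.

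Among early stress factors most members were not called, and the calls were falls. Of 17 tested ERF genes, 4 fell and none rose (median log2 fold change −0.57), but no call was left without 3 h replicate 2. ERF1A had 328, 272 and 228 CPM at 3 h, against 455, 442 and 551 CPM at 1 h (log2 change of −0.80 ± 0.16, adjusted p = 0.0103). ERF1A lost its call without 3 h replicate 2 (adjusted p = 0.0653). ERF6 (log2 change of −1.28, adjusted p = 0.0313), RAP2.6L (log2 change of −0.70, adjusted p = 0.0403) and ERF104 (log2 change of −0.61, adjusted p = 0.0483) fell too, each losing its call in at least 4 of 6 such fits. Zinc finger factors fell in 2 of 10 tested genes. SZF1, a CCCH factor of salt stress, had 147, 119 and 79.6 CPM at 3 h, against 259.7, 306 and 309.6 CPM at 1 h (log2 change of −1.34 ± 0.20, adjusted p = 0.00315). AZF3 fell too (log2 change of −0.77 ± 0.20, adjusted p = 0.0393). AZF3 lost its call in 4 of 6 leave-one-out fits, though not without 1 h replicate 1 or 3 h replicate 1 (adjusted p = 0.0526 to 0.183). WRKY factors fell in 2 of 10. WRKY11 had 50, 48.2 and 44.3 CPM at 3 h, against 80.4, 76.3 and 75.3 CPM at 1 h (log2 change of −0.70 ± 0.14, adjusted p = 0.011). WRKY11 lost its call without 3 h replicate 2 (adjusted p = 0.0633). WRKY33 fell as well (log2 change of −0.71 ± 0.16, adjusted p = 0.022). WRKY33 lost its call without 1 h replicate 1, 1 h replicate 2 or 3 h replicate 2 (adjusted p = 0.0599 to 0.0792). SZF1 kept its call in every such fit and was lower in each 3 h library. By edgeR no calmodulin-like or touch gene was called among 8 tested (median log2 fold change −0.49), while 3 lay below 1 h at an unadjusted p under 0.05 and DESeq2 called 1. The ethylene-forming oxidase ACO5 was the 1 call among 7 tested ACC genes (log2 change of −0.63 ± 0.14, adjusted p = 0.0196). ACO5 lost its call without 1 h replicate 1, 3 h replicate 2 or 3 h replicate 3 (adjusted p = 0.0693 to 0.093).

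Of 3 tested U-box ubiquitin ligases, 1 fell and 1 rose. PUB23, which limits drought and immune responses, had 153, 114 and 73.6 CPM at 3 h, against 292, 284 and 326 CPM at 1 h (log2 change of −1.40 ± 0.23, adjusted p = 0.00698). PUB23 lost its call without 1 h replicate 3 (adjusted p = 0.0619). PUB19, an ABA-related ligase, had 268, 266 and 186 CPM at 3 h, against 147, 92.5 and 101 CPM at 1 h (log2 change of 1.08 ± 0.20, adjusted p = 0.00936). PUB19 lost its call without 1 h replicate 3 or 3 h replicate 2 (adjusted p = 0.0558 to 0.0559), and with all 12 root libraries in the fit (0.0703). Among jasmonate synthesis genes 3 of 14 fell and 1 rose. AOS, the allene oxide synthase, had 232, 188 and 159 CPM at 3 h, against 339, 319 and 354 CPM at 1 h (log2 change of −0.81 ± 0.15, adjusted p = 0.00844). AOS lost its call without 3 h replicate 2 (adjusted p = 0.0576). AOC3 fell with it (log2 change of −0.80 ± 0.17, adjusted p = 0.0179). AOC3 lost its call without 1 h replicate 1, 1 h replicate 3 or 3 h replicate 2 (adjusted p = 0.0691 to 0.0731). JAR1, which conjugates jasmonate to isoleucine, had 43.1, 44.2 and 38.1 CPM at 3 h, against 21.5, 24.3 and 15.2 CPM at 1 h (log2 change of 0.99 ± 0.19, adjusted p = 0.00889). JAR1 lost its call without 3 h replicate 2 (adjusted p = 0.0562). LOX3, AOS and AOC3 were thus lower and JAR1 higher at 3 h, and the other 10 tested genes were not called. The groups did not overlap for these genes, which for LOX3 the naming rule required. Among 10 response genes, the jasmonate hydroxylase CYP94B3 had 96.9, 91.1 and 81.7 CPM at 3 h, against 162, 185 and 153 CPM at 1 h (log2 change of −0.89 ± 0.14, adjusted p = 0.00283). CYP94C1 fell (log2 change of −1.22 ± 0.25, adjusted p = 0.0133). CYP94C1 lost its call without 1 h replicate 1 or 3 h replicate 2 (adjusted p = 0.0505 to 0.0779). The repressor JAZ12 had 160.0, 184 and 164 CPM at 3 h, against 113, 85.7 and 93 CPM at 1 h (log2 change of 0.80 ± 0.15, adjusted p = 0.00731).

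The Casparian strip genes fell in 5 of 6 tested members, with a median log2 fold change of −1.39, and these 5 calls were kept in every fit that left out 1 library and under every other setting tried. CASP1, a protein of the membrane scaffold of the strip, had 135, 132 and 113 CPM at 3 h, against 327, 302 and 400.1 CPM at 1 h (log2 change of −1.44 ± 0.15, adjusted p = 0.00028). CASP2, of the same scaffold, had 60.1, 41.1 and 49.2 CPM at 3 h, against 126, 113 and 145 CPM at 1 h (log2 change of −1.35 ± 0.17, adjusted p = 0.00102). For both genes the lowest 1 h library held nearly double the CPM of the highest 3 h library or more. ESB1, a dirigent protein that places lignin in the strip, had 103, 93.8 and 87.3 CPM at 3 h, against 248, 183 and 255 CPM at 1 h (log2 change of −1.27 ± 0.15, adjusted p = 0.000869). PER64, a peroxidase of strip lignin, had 65.4, 64.9 and 67 CPM at 3 h, against 196, 187 and 209.8 CPM at 1 h (log2 change of −1.58 ± 0.13, adjusted p = 9.2e-05), and its replicates lay close together at both times. MYB36, the factor that drives these genes, was near the floor, with 2.42, 2.75 and 3.48 CPM at 3 h, against 2.91, 4.57 and 0.846 CPM at 1 h, and was not called (adjusted p = 0.891). The list summed to 0.0365% to 0.0411% of counts at 3 h and 0.0894% to 0.0994% at 1 h. Among other root markers, SCR and SHR, endodermal and stele factors, had log2 fold changes of −0.01 and −0.24 and were not called. Over all 10 tested root markers, CASP1 included, log2 fold changes ran from −1.44 to 1.31, with 6 above 0. CASP1 was the only edgeR call, and at an unadjusted p under 0.05 2 markers lay above 1 h and 1 below. Of the 12 tested suberin genes, whose product coats the same cell layer later, edgeR called 0 (median log2 fold change 0.23), with 2 above and 2 below 1 h at an unadjusted p under 0.05 and 1 called by DESeq2. CASP1, ESB1 and PER64 overlap genes on the other strand.

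The same 250 bases are shown for 3 Casparian strip genes whose window overlaps no other annotated gene, for comparison with the PP2C promoters; capitals again mark ACGTG on either strand. In TAIR10.1 the windows are CASP1 at chr2:15160800-15161049, minus strand; ESB1 at chr2:12302359-12302608, minus strand; PER64 at chr5:16852378-16852627, plus strand.
CASP1: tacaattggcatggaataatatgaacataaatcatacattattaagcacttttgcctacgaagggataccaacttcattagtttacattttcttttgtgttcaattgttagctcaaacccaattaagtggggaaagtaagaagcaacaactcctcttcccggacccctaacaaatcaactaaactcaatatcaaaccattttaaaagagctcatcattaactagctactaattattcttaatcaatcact
ESB1: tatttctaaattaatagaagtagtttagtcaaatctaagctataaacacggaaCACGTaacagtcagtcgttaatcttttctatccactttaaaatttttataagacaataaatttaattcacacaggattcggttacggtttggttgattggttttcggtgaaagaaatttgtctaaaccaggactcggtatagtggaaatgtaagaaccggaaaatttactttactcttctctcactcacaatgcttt
PER64: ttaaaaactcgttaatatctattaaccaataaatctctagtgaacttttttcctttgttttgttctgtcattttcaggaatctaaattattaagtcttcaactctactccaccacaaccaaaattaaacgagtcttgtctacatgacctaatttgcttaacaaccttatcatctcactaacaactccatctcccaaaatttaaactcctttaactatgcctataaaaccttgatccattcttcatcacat
The ESB1 window held 1 match and the other windows none. No match says only that these letters are not in this window.

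Tonoplast aquaporins, the water channels of the vacuole, fell in 5 of 6 tested members (median log2 fold change −0.84). TIP2;1 had 485, 427 and 424 CPM at 3 h, against 1042, 835 and 1183 CPM at 1 h (log2 change of −1.19 ± 0.15, adjusted p = 0.00105). TIP4;1 had 70.9, 58 and 61.2 CPM at 3 h, against 147, 123 and 183 CPM at 1 h (log2 change of −1.24 ± 0.17, adjusted p = 0.00141). TIP1;1, the most counted of them, had 2064, 1941 and 1862 CPM at 3 h, against 3248, 3134 and 4025 CPM at 1 h (log2 change of −0.83 ± 0.15, adjusted p = 0.00612). The 1 h libraries, of which replicate 3 was the highest in all 3 genes, did not overlap the 3 h libraries. TIP1;2 had 1862, 1886 and 1709 CPM at 3 h, against 3154, 2719 and 3971 CPM at 1 h (log2 change of −0.85 ± 0.16, adjusted p = 0.00844). TIP2;2 fell by less (log2 change of −0.66 ± 0.16, adjusted p = 0.0277). TIP1;2 lost its call without 3 h replicate 2 (adjusted p = 0.0514). TIP2;2 lost its call in 4 of 6 leave-one-out fits, though not without 1 h replicate 2 or 3 h replicate 1 (adjusted p = 0.0587 to 0.128). TIP2;3 was not called (log2 change of −0.40 ± 0.17, adjusted p = 0.189). Of 13 plasma membrane aquaporins, 2 fell and none rose, with a median of −0.01 on the log2 scale. PIP1;1 had 547, 547 and 503 CPM at 3 h, against 1071, 933 and 1139 CPM at 1 h (log2 change of −0.98 ± 0.13, adjusted p = 0.00142). PIP2;4 fell too (log2 change of −0.59 ± 0.16, adjusted p = 0.0475). PIP2;4 lost its call in 5 of 6 leave-one-out fits, though not without 1 h replicate 3 (adjusted p = 0.064 to 0.177).

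Cell wall growth genes fell in 5 and rose in 3 of 21 tested members (median log2 fold change −0.42). EXO, a brassinosteroid-induced growth protein related to PHI-1, had 432, 312 and 312 CPM at 3 h, against 840.3, 913 and 945 CPM at 1 h (log2 change of −1.35 ± 0.16, adjusted p = 0.000573). Its relative EXL5 had 95.8, 75.9 and 87.7 CPM at 3 h, against 175, 171 and 205 CPM at 1 h (log2 change of −1.08 ± 0.14, adjusted p = 0.00126). XTH23, a xyloglucan endotransglucosylase, had 116, 95.6 and 112 CPM at 3 h, against 339, 338 and 206 CPM at 1 h (log2 change of −1.45 ± 0.19, adjusted p = 0.00137). XTH21 fell too (log2 change of −0.95 ± 0.17, adjusted p = 0.00732). XTH21 lost its call without 3 h replicate 2 (adjusted p = 0.0511). Replicate 3 was the lowest 1 h library of XTH23 and still stood above every 3 h library. The expansin EXPA1 rose, with 37.4, 59.6 and 50.5 CPM at 3 h, against 25.8, 20.6 and 24.5 CPM at 1 h (log2 change of 1.07 ± 0.21, adjusted p = 0.00936). EXPA1 lost its call without 3 h replicate 2 (adjusted p = 0.061). The expansin EXPA10 rose, with 8.81, 12.2 and 12.2 CPM at 3 h, against 3.64, 2.86 and 4.23 CPM at 1 h (log2 change of 1.69 ± 0.32, adjusted p = 0.00914). EXPA10 lost its call without 3 h replicate 2 (adjusted p = 0.0563). XTH5 rose by less (log2 change of 0.68 ± 0.18, adjusted p = 0.0393). XTH5 lost its call in 5 of 6 leave-one-out fits, though not without 3 h replicate 3 (adjusted p = 0.0606 to 0.186). Of 18 tested root hair genes, edgeR and DESeq2 called 0 (median log2 fold change −0.31), with 3 below 1 h at an unadjusted p under 0.05. The root hair list summed to 0.0310% to 0.0409% of counts at 3 h and 0.0351% to 0.0411% at 1 h.

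**Figure D3:**
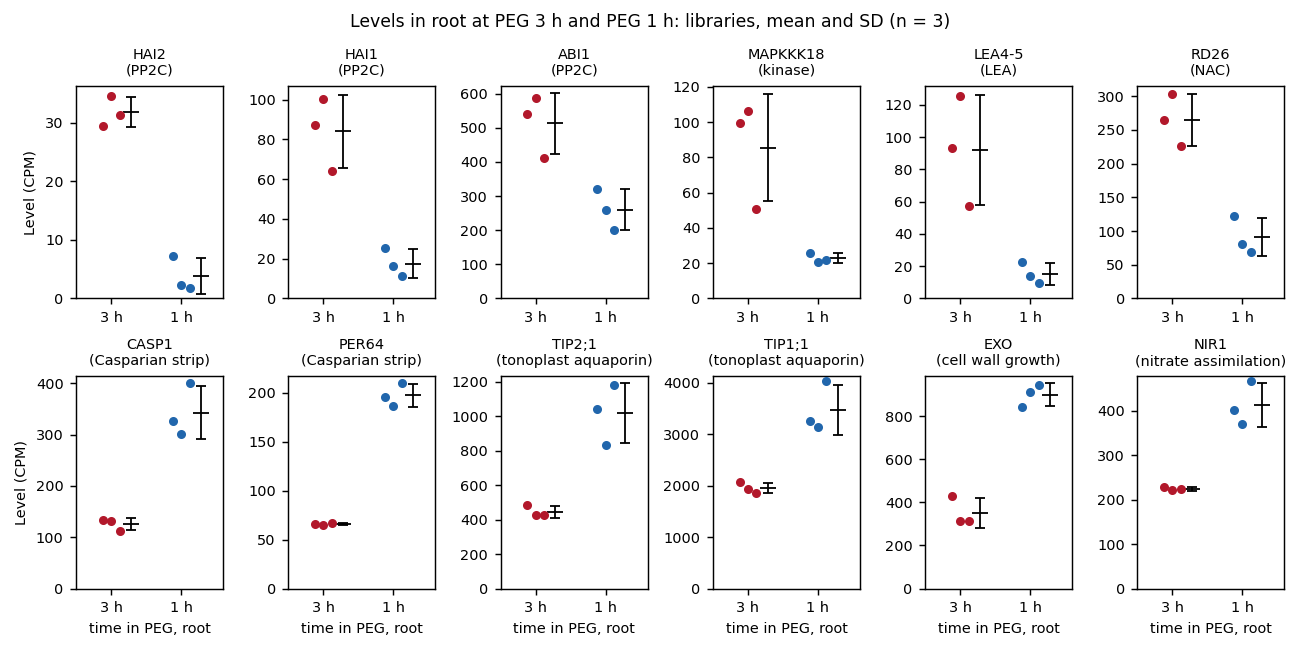
Level in CPM of 12 genes in each library (points), with the mean and SD of the 3 replicates, PEG 3 h left of PEG 1 h. HAI2, HAI1, ABI1, MAPKKK18, LEA4-5 and RD26 are higher in every 3 h library, which for HAI2 and LEA4-5 the naming rule required. CASP1, PER64, TIP2;1, TIP1;1, EXO and NIR1 are lower in every 3 h library.

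Of 10 tested nitrogen genes 3 fell and none rose (median log2 fold change −0.60), and 1 call was left without 1 h replicate 3. NIR1, nitrite reductase, had 229, 221 and 224 CPM at 3 h, against 402, 370.5 and 466 CPM at 1 h (log2 change of −0.87 ± 0.13, adjusted p = 0.00244). NIA1, nitrate reductase, had 138, 167 and 120.2 CPM at 3 h, against 214, 217 and 305 CPM at 1 h (log2 change of −0.78 ± 0.17, adjusted p = 0.0194). NIA1 lost its call without 1 h replicate 3 or 3 h replicate 1 (adjusted p = 0.0538 to 0.0685). The nitrate transporter NRT1.1 fell (log2 change of −0.69 ± 0.17, adjusted p = 0.0317). NRT1.1 lost its call in 4 of 6 leave-one-out fits, though not without 1 h replicate 2 or 3 h replicate 1 (adjusted p = 0.0826 to 0.118). NIR1 levels at 3 h lay within a few CPM of each other and below the 1 h range. Among 6 ion transport genes the phosphate transporter PHT1;4 fell (log2 change of −0.86 ± 0.20, adjusted p = 0.0261). PHT1;4 lost its call in 4 of 6 leave-one-out fits, though not without 1 h replicate 2 or 3 h replicate 1 (adjusted p = 0.0515 to 0.13). Its relative PHT1;1 fell too (log2 change of −0.60 ± 0.16, adjusted p = 0.041). PHT1;1 lost its call in 4 of 6 leave-one-out fits, though not without 1 h replicate 2 or 3 h replicate 1 (adjusted p = 0.107 to 0.169). FER1, the iron store ferritin, was the 1 call among 3 tested iron genes and rose, with 1051, 1199.6 and 1082 CPM at 3 h, against 443, 379 and 354 CPM at 1 h (log2 change of 1.5 ± 0.14, adjusted p = 0.000203).

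Auxin genes rose in 5 and fell in 1 of 17 tested members (median log2 fold change 0.28). PIN3, an efflux carrier of root gravitropism, had 62.3, 65.4 and 64.5 CPM at 3 h, against 32, 23.4 and 11.8 CPM at 1 h (log2 change of 1.44 ± 0.24, adjusted p = 0.00573). PIN4 had 68.2, 62.8 and 37.6 CPM at 3 h, against 30.9, 25.7 and 22 CPM at 1 h (log2 change of 1.08 ± 0.24, adjusted p = 0.0199). PIN4 lost its call in 4 of 6 leave-one-out fits, though not without 1 h replicate 1 or 3 h replicate 3 (adjusted p = 0.0727 to 0.101). Both carriers were higher in every 3 h library. The repressor IAA13 rose (log2 change of 0.82, adjusted p = 0.0145). IAA13 lost its call without 1 h replicate 2 or 3 h replicate 2 (adjusted p = 0.0597 to 0.0787). IAA2 rose (log2 change of 1.39, adjusted p = 0.0417). IAA2 lost its call in 5 of 6 leave-one-out fits, though not without 1 h replicate 3 (adjusted p = 0.0866 to 0.176). The influx carrier LAX3 fell (log2 change of −0.65, adjusted p = 0.0233). LAX3 lost its call in 4 of 6 leave-one-out fits, though not without 1 h replicate 2 or 3 h replicate 1 (adjusted p = 0.062 to 0.131). Of 8 cytokinin genes, the response regulator ARR8 rose, with 64.1, 91.4 and 86.1 CPM at 3 h, against 32.7, 27.7 and 46.5 CPM at 1 h (log2 change of 1.23 ± 0.21, adjusted p = 0.00534). ARR3 fell, with 8.81, 9.81 and 6.19 CPM at 3 h, against 21.8, 18.6 and 19.5 CPM at 1 h (log2 change of −1.27 ± 0.25, adjusted p = 0.0101). Among 16 gibberellin and brassinosteroid genes, the factor BES1 rose (log2 change of 0.74 ± 0.20, adjusted p = 0.0484). BES1 lost its call in 4 of 6 leave-one-out fits, though not without 1 h replicate 1 or 3 h replicate 3 (adjusted p = 0.123 to 0.191).

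Clock genes are given beside these because the 3 h and 1 h roots were harvested at different times after transfer. RVE1, a morning factor, had 12.1, 14.8 and 13.2 CPM at 3 h, against 4.0, 5.43 and 2.54 CPM at 1 h (log2 change of 1.63 ± 0.30, adjusted p = 0.00834). RVE1 lost its call without 3 h replicate 2 (adjusted p = 0.0531). It was the 1 edgeR call among 5 tested morning genes (median log2 fold change 1.09). At an unadjusted p under 0.05, 3 of the 5 lay above 1 h and none below, and DESeq2 called 2. CCA1, the central morning factor, was not called (log2 change of 1.39 ± 0.49, adjusted p = 0.112). Of 10 evening genes, CHE fell, with 107, 76.4 and 75.1 CPM at 3 h, against 204, 182 and 171 CPM at 1 h (log2 change of −1.11 ± 0.16, adjusted p = 0.00211). ELF4 rose (log2 change of 0.74 ± 0.17, adjusted p = 0.0232). ELF4 lost its call without 1 h replicate 2, 1 h replicate 3 or 3 h replicate 2 (adjusted p = 0.0793 to 0.116). CHE was lower in every 3 h library and its call was kept in every leave-one-out fit. The part of the time of day in other genes was not tested.

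Other lists held few calls. Of 9 tested glutathione transferases, GSTU17 rose (log2 change of 1.96 ± 0.38, adjusted p = 0.0102). GSTU17 lost its call without 1 h replicate 1 or 3 h replicate 2 (adjusted p = 0.0544 to 0.0638). GSTU12 fell (log2 change of −1.52 ± 0.38, adjusted p = 0.0328). GSTU12 lost its call in 5 of 6 leave-one-out fits, though not without 1 h replicate 2 (adjusted p = 0.0608 to 0.164). Of 19 ribosome biogenesis genes, AT3G05060, a nucleolar protein gene, rose (log2 change of 0.87 ± 0.18, adjusted p = 0.0124). AT3G05060 lost its call without 1 h replicate 2 or 3 h replicate 2 (adjusted p = 0.067 to 0.0774). The xylem protease XCP2 fell, with 118, 120.2 and 109 CPM at 3 h, against 178, 191 and 175 CPM at 1 h (log2 change of −0.65 ± 0.12, adjusted p = 0.00918), the 1 call among 6 tested vascular markers. All 8 vascular markers, tested or not, summed to 0.0338% to 0.0379% of counts at 3 h and 0.0337% to 0.0423% at 1 h. In 1 h replicates 1 and 3, 6 of the 8 had counts. Neither edgeR nor DESeq2 called a gene among 12 cell cycle genes, 8 antioxidant genes and 5 genes of mitochondrial stress; each of these lists had 1 gene at an unadjusted p under 0.05. Outside the lists, 4 of 20 tested genes of the mitochondrial genome rose (median log2 fold change 0.76), where 3.62% of all tested genes rose. The share of counts from organelle genomes, given above, was lower in every 3 h library than in every 1 h library. Calls of these 4 genes without single libraries are not given here. Of the 123 called genes described here by name, 60 kept their call in every fit, and none changed sign in any. Settings other than leaving out a library ended the call of 22 of them (adjusted p = 0.0501 to 0.181), and each of these 22 was also lost without some library. They were AT3G12510, AZF3, BES1, CBF3, ERF104, ERF6, GOLS1, GSTU12, HB-1, HB16, HRE2, HSFA3, IAA2, LTI30, NRT1.1, PHT1;1, PIP2;4, PUB19, PYL8, RAP2.6L, WRKY33 and XTH5.

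The 2 h roots, which took no part in the comparison, show the levels in between; CPM here are scaled over the 9 PEG root libraries and given as mean ± SD of 3 libraries. HAI2 stood at 3.79 ± 3.03 CPM at 1 h, 19.6 ± 4.71 CPM at 2 h and 31.6 ± 2.64 CPM at 3 h. HAI1 stood at 17.7 ± 6.97 CPM at 1 h, 55.3 ± 9.79 CPM at 2 h and 83.6 ± 19 CPM at 3 h. HB7 stood at 19.7 ± 5.81 CPM at 1 h, 80.9 ± 23.2 CPM at 2 h and 114 ± 29.6 CPM at 3 h. The larger step of these 3 means came between 1 h and 2 h. RD29A stood at 327 ± 200.4 CPM at 1 h, 1073 ± 281 CPM at 2 h and 1131 ± 159 CPM at 3 h, so that its 2 h and 3 h means differed by less than their SDs. Among falling genes, PHI-1 stood at 286 ± 11.1 CPM at 1 h, 152 ± 18.7 CPM at 2 h and 57.6 ± 13.4 CPM at 3 h. CASP1 stood at 349.6 ± 51.7 CPM at 1 h, 217 ± 13.3 CPM at 2 h and 126 ± 13 CPM at 3 h. PER64 stood at 201 ± 11.5 CPM at 1 h, 118 ± 12.1 CPM at 2 h and 65.4 ± 0.475 CPM at 3 h. TIP2;1 stood at 1039 ± 171 CPM at 1 h, 721 ± 90.2 CPM at 2 h and 443 ± 36.8 CPM at 3 h. The 2 h mean lay between the 1 h and 3 h means for all 28 of the largest changes. It lay between them for 354 of the 375 genes that rose, above both for 20 and below both for 1, and for 373 of the 383 that fell, above both for 7 and below both for 3. The 1 h and 3 h means are those that chose these genes.

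**Figure D4:**
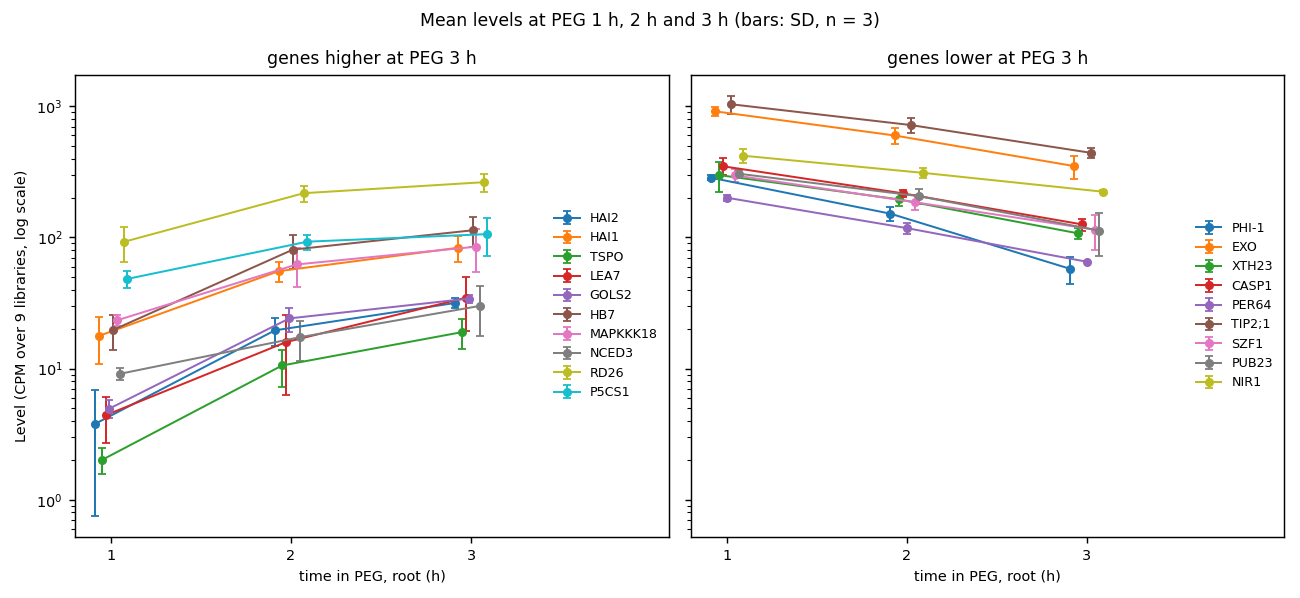
Mean CPM (log axis, bars are SD of 3 libraries) after 1, 2 and 3 h of PEG for 10 genes that rose and 9 that fell between 1 h and 3 h. HAI2 runs 3.79, 19.6 and 31.6 CPM and CASP1 349.6, 217 and 126 CPM over the 3 times.

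Promoter letters were counted for the called genes over a window of 300 bases, 250 before and 50 after the RefSeq start, on both strands, without a test. ACGTG, the core of ABA-responsive elements, was present in 158 of 371 promoters of genes that rose (42.6%) and 104 of 382 of genes that fell (27.2%), against 28.6% of 10314 promoters of all tested genes. CACGTG, the G-box, which holds ACGTG, was present in 18.1% of genes that rose, 5.24% of those that fell and 9.28% of all. CCGAC, the core bound by DREB factors, was present in 22.1%, 8.64% and 16.4% of the same sets. For these 3 motifs the share among genes that rose was above that of all tested genes, and for CACGTG and CCGAC the share among genes that fell was below it. The 95% Wilson interval of the ACGTG share among genes that rose was 37.7% to 47.7%. This interval takes the genes as independent and is not a test against all tested genes. TTGAC, the core bound by WRKY factors, was present in 49.6% of genes that rose, 59.2% of genes that fell and 50.6% of all. GGCCCA, the site II element of ribosomal and dividing-cell genes, was present in 15.1%, 5.76% and 19.8%. Lists with calls in 1 direction differed in their shares. Among lists with rises, ACGTG was present in 5 of 8 PP2C promoters, 11 of 17 of protective proteins, 1 of 8 of heat shock factors and 2 of 14 of hypoxia genes. Among lists with falls, it was present in 9 of 17 ERF promoters, 1 of 6 of Casparian strip genes, 2 of 6 of tonoplast aquaporins and 1 of 10 of nitrogen genes. It was also present in 11 of 18 root hair promoters, a list with no call.

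The shoots of the same treatment show which root changes differed by organ. In an edgeR fit of 12 libraries, root and shoot at 3 h and 1 h, the change in root minus the change in shoot was called for 68 of 14607 tested genes (0.466%), 43 with a positive difference (0.294%) and 25 with a negative one (0.171%). The median difference of all genes was 0.22 on the log2 scale, and DESeq2's size factors turned the split to 24 positive and 53 negative. Of the 196 genes named by rule, 11 were called. These genes were chosen largely by their change in the same root libraries, which is part of this difference. Their number and sizes can therefore not be set against those of all genes. PIP1;1 in root had 595, 603 and 538 CPM at 3 h, against 1049.6, 978 and 1069.8 CPM at 1 h. In shoot PIP1;1 had 385, 373 and 405 CPM at 3 h, against 241, 206 and 286 CPM at 1 h (root minus shoot difference −1.5 ± 0.19, adjusted p = 0.00127). The root levels were lower and the shoot levels higher at 3 h, without overlap in either organ, and the call was kept in every fit that left out 1 library. TIP1;1 in root had 2247, 2142 and 1992 CPM at 3 h, against 3184, 3284 and 3782 CPM at 1 h. In shoot TIP1;1 had 750.3, 695 and 799.7 CPM at 3 h, against 496, 660.2 and 615 CPM at 1 h (root minus shoot difference −1.02 ± 0.19, adjusted p = 0.0144). PIN3 in root had 67.8, 72.2 and 68.9 CPM at 3 h, against 31.4, 24.5 and 11.1 CPM at 1 h. In shoot PIN3 had 39, 32.2 and 29.1 CPM at 3 h, against 38.9, 37.3 and 36.4 CPM at 1 h (root minus shoot difference 1.73 ± 0.30, adjusted p = 0.0116). PHI-1 in root had 79.1, 58.9 and 50.9 CPM at 3 h, against 282, 277 and 273 CPM at 1 h. In shoot PHI-1 had 23.3, 21.3 and 16.3 CPM at 3 h, against 29.7, 36 and 31.3 CPM at 1 h (root minus shoot difference −1.46 ± 0.25, adjusted p = 0.0116). PIN3 was higher at 3 h in root and overlapped between times in shoot, and PHI-1 was lower at 3 h in both organs, by more in root. RVE1 in root had 13.2, 16.3 and 14.1 CPM at 3 h, against 3.92, 5.69 and 2.38 CPM at 1 h. In shoot RVE1 had 16.8, 16.6 and 15.3 CPM at 3 h, against 22.5, 15.2 and 21.2 CPM at 1 h (root minus shoot difference 2.00 ± 0.36, adjusted p = 0.0143). FER1 in root had 1144, 1324 and 1158 CPM at 3 h, against 434, 397 and 332 CPM at 1 h. In shoot FER1 had 325, 334 and 340.1 CPM at 3 h, against 203, 205 and 305 CPM at 1 h (root minus shoot difference 1.15 ± 0.22, adjusted p = 0.0165). PIN3 and PHI-1 lost their calls without shoot 3 h replicate 2 (adjusted p = 0.0509 each), and RVE1 without that library or shoot 1 h replicate 1 (adjusted p = 0.0509 and 0.0515). TIP1;1 lost its call without shoot 1 h replicate 1, shoot 3 h replicate 1 or shoot 3 h replicate 2 (adjusted p = 0.0504 to 0.0615). FER1 lost its call without shoot 3 h replicate 1, shoot 3 h replicate 2 or root 1 h replicate 3 (adjusted p = 0.0611 to 0.0639), and with DESeq2's size factors (adjusted p = 0.0621). With the replicate letter within each tissue as a block, TIP1;1 and RAP2.6L lost their calls (adjusted p = 0.0576 and 0.0646). Roots and shoots were parted from the same seedlings, and the labels do not state which libraries share a pool. Where libraries of the same time and letter were taken as 1 pool and the pool was a block, 51 differences were called, of which 36 were among the 68. In that fit CYP94B3, FER1, PIN4 and RAP2.6L lost their calls (adjusted p = 0.0606, 0.0606, 0.0758 and 0.0866). For the PP2C, NAC and Casparian strip genes named above, no difference between the organs was called, which does not show that they changed alike.

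**Figure D5:**
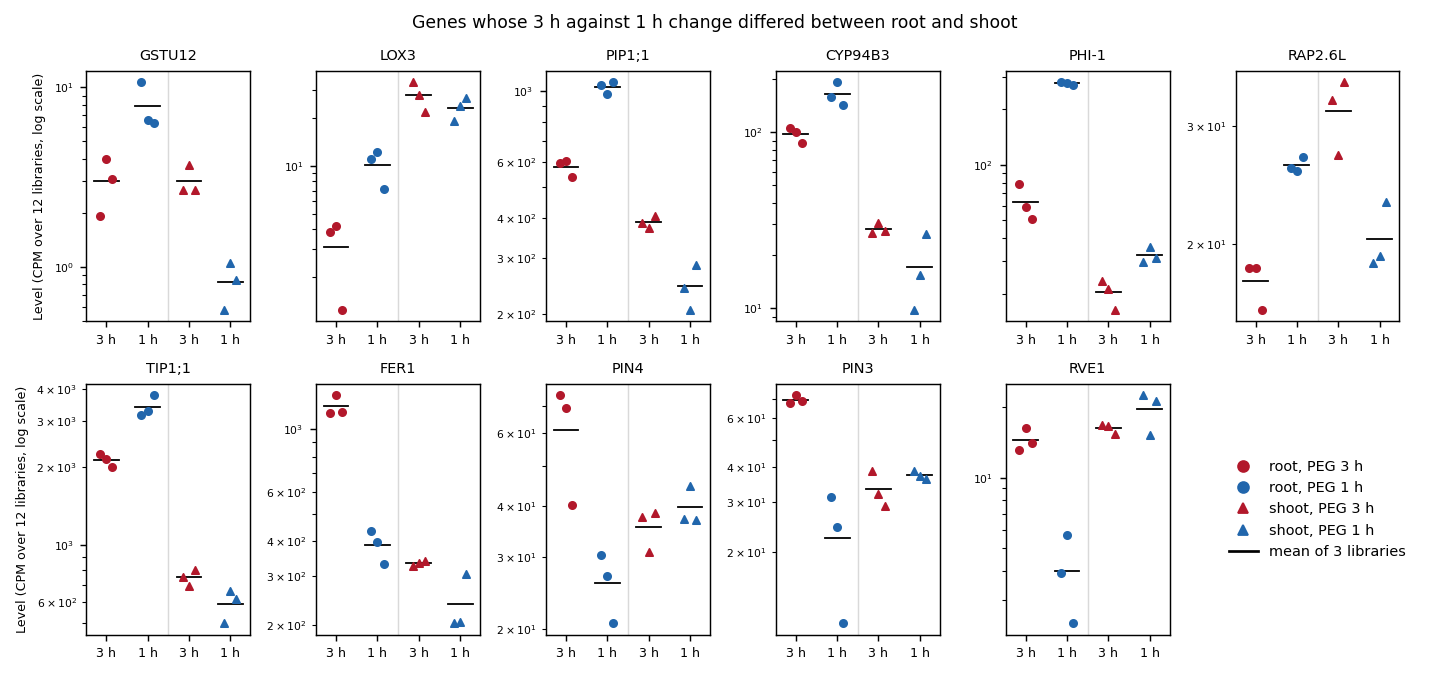
Level in CPM (log axis) of the 11 named genes whose change differed between root and shoot, with root PEG 3 h, root PEG 1 h, shoot PEG 3 h and shoot PEG 1 h from left to right, points being libraries and bars the mean. PIP1;1 is lower at 3 h than at 1 h in root and higher in shoot.

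The authors' deposited table for the same libraries, made with DESeq2 per the submitters' processing notes, called 1081 genes at an adjusted p under 0.05. Its log2 column runs 1 h over 3 h. Read as 3 h over 1 h, the authors' deposited table held 417 genes that rose and 664 that fell. Calls of single genes differed in both directions. By the authors' DESeq2 values, P5CS1 (adjusted p = 0.254), PUB19 (0.3), GOLS1 (0.218), ELF4 (0.309) and XTH5 (0.105) were among those not called. RD29A (0.0119) and DREB2A (0.00335), not called by edgeR here, were called there.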

How the data were processed

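RNA was counted by MARS-seq, per the labels' protocols, and the submitters' processing notes name bcl2fastq, cutadapt, STAR 2.4.2a, HTSeq and DESeq2. The genome build, the strand setting and the use of molecular barcodes were not found in the labels. The table the authors deposited holds raw counts per gene for 24 libraries, and beside them log2 fold changes and p-values of their own comparisons. Those were used here only for sums of calls and for the calls of single genes given above. In the 6 libraries, genes passing filterByExpr were fitted in edgeR 4.0.16 (R 4.3.3, TMM factors, robust quasi-likelihood F test, Benjamini-Hochberg adjustment at 0.05); the 12-library fit tested the difference between root and shoot. The fits were checked on simulated counts. DESeq2 1.42.0, other size factors, other filters, other sets of libraries and leaving out each library were alternatives. Replicates were separate pools of seedlings per the labels. The Wilson interval covers only the sampling of promoters, and the floors cover only the counting of reads. Library code digits differ in 1 library, 1 h replicate 1; leaving it out gave 504 calls.

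The genes named by rule were the 14 highest and 14 lowest called log2 fold changes with separate groups and a mean of at least 10 CPM, up to 4 members of each list with the lowest adjusted p (called or not) and any called against the rest, and a short list of stress genes. Further called members of the lists were named with their values known. Some genes are not reported here by name. The members, the lists and the rule were chosen with earlier results of these data known. Names matched RefSeq for 18125 of 18240 identifiers (TAIR10.1), and promoters were cut from that genome at each annotated gene start.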

Additional observations from a re-analysis of the deposited data

Results flagged for a closer look

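The change at PEG 3 h against PEG 1 h differed between root and shoot for 68 of 14607 genes, by edgeR's test of the interaction over 12 libraries, and 11 of these were among the 196 genes named by rule. The rule drew largely on the change in root, which is part of this difference. Of the 11, negative differences, a change in root below that in shoot, were found for GSTU12 (−3.22), LOX3 (−2.03), PIP1;1 (−1.5), CYP94B3 (−1.48), PHI-1 (−1.46), RAP2.6L (−1.21) and TIP1;1 (−1.02), all on the log2 scale. Positive differences were found for FER1 (1.15), PIN4 (1.36), PIN3 (1.73) and RVE1 (2.00). GSTU12 in root had 1.92, 3.99 and 3.11 CPM at 3 h, against 10.7, 6.58 and 6.36 CPM at 1 h, and in shoot 2.67, 3.71 and 2.67 CPM at 3 h, against 0.576, 1.05 and 0.847 CPM at 1 h. PIN4 in root had 74.3, 69.3 and 40.2 CPM at 3 h, against 30.3, 26.9 and 20.7 CPM at 1 h, and in shoot 37.4, 30.9 and 38.4 CPM at 3 h, against 37.2, 44.7 and 37 CPM at 1 h. The fitted log2 changes of these genes were −1.39 in root and 1.83 in shoot for GSTU12 and 1.2 in root and −0.16 in shoot for PIN4. Leaving out 1 of the 12 libraries ended the call of PIN4 in 10 fits, of CYP94B3 and RAP2.6L in 9 each, of LOX3 in 6, of GSTU12, TIP1;1 and FER1 in 3 each, of RVE1 in 2, of PHI-1 and PIN3 in 1 each and of PIP1;1 in none.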

How the results depend on the processing

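The 758 calls in root, 375 that rose and 383 that fell, moved by more than 1.5 times in some count under several settings. They did so without 1 h replicate 1 (504 calls, 221 that fell) and without 1 h replicate 2 (195 that rose). Without 3 h replicate 1 (229 that rose) and without 3 h replicate 2 (240 calls) they did so too. With library totals 251 genes fell; with the 9 PEG root libraries in the fit 1204 changed and 715 fell; with all 12 root libraries 1548 changed, 609 that rose and 939 that fell. A minimum of 1 on the log2 scale left 378 calls, 219 that rose and 159 that fell, and 64 of the 105 called list members. Leaving out 1 library gave 240 to 607 calls, 121 to 316 that rose, 119 to 332 that fell and 51 to 101 list members; the lowest values came without 3 h replicate 2. DESeq2 called 836 genes, 345 that rose and 491 that fell, and no filter gave 942. Same-lettered libraries of 3 h and 1 h deviated together with correlations of 0.253, 0.0915 and −0.146, and not every library correlated best with its own letter, so the letters were not taken to pair them. A fit with the replicate block called 670 genes, of which 293 that rose and 309 that fell were shared with the fit without it, and 64 differences between root and shoot. Root and shoot libraries of the same time and letter deviated together with correlations of −0.0952 to 0.12, and a replicate block of these assumed pools, chosen after seeing the data, gave 51 differences, 31 positive and 20 negative. For those differences, other size factors (RLE) gave 24 positive and 53 negative, DESeq2 142 in all and 96 negative, and TMM within each tissue, chosen after seeing the data, 51 negative. Leaving out 1 of 12 libraries gave 7 to 174 differences, 4 to 91 positive and 3 to 83 negative, lowest without shoot 3 h replicate 2 and highest without shoot 1 h replicate 3. The cause of these shifts was not tested. With promoters of the 250 bases before the start alone, ACGTG was present in 37.2% of genes that rose and 24.2% of all; CACGTG in 7.76% of all; CCGAC in 18.1% of genes that rose and 13.2% of all; TTGAC in 44.5% of genes that rose, 52.4% of genes that fell and 44.7% of all. The GCC box was present in 1.99% of all, the evening element in 10.5% of all, the telo box in 5.66% of genes that rose and 5.98% of all, site II in 17.1% of all and the heat shock element in 9.06% of all; the shorter window holds fewer letters. Depth limits genes near the 1 h floor of 0.860 to 2.25 CPM, such as HAI3 and PYL8. In 1 h replicate 3, AT3G03341, TSPO, HAI2, RAB18, AT1G04047 and AT1G75600 also lay under the floor, so the size of their rises is uncertain.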
